A study of Homo sapiens with 6 samples.

Results

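The genes described here are 10 members of the NF-kB system in AGS cells, which are a line grown from a human gastric adenocarcinoma: the subunit genes NFKB1, NFKB2, RELA and RELB, the inhibitor genes NFKBIA and NFKBIE, the feedback genes TNFAIP3 and TNIP1, and the paired ubiquitin ligase genes BIRC2 and BIRC3. They were taken by symbol from the deposited table of FPKM (fragment counts scaled to exon length and library size), in which each had 1 of the 58735 rows. All cells carried the label of a wild-type genotype and were transfected with Lipofectamine 2000, with a control siRNA (siNC) or an siRNA against RBM8A (siRBM8A), and were harvested after 48 h. Each group held 3 libraries of polyadenylated RNA, called biological replicates in the labels. No untransfected cells were analysed here, and the siRNA sequences were not in the labels. The comparison asks which transcript levels changed after RBM8A was silenced. RBM8A encodes Y14, which sits with its partners on spliced mRNA as the exon junction complex.

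NF-kB transcription factors are dimers of REL-family subunits that inhibitors of the IkB family hold in the cytoplasm. Signals from receptors for TNF, interleukin-1 or microbial products activate the IKK kinases, which mark IkB proteins for degradation, and the freed dimers enter the nucleus. Several of the genes they induce, NFKBIA, TNFAIP3 and BIRC3 among them, act back on the pathway. In epithelial cells the pathway drives chemokine, survival and inflammatory genes.

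Promoter sequences are shown because NF-kB binds a DNA site, the kB site, and induces several of these genes. The 10 genes were taken by symbol and not by such a site. RefSeq (GRCh38.p14) listed 14 start windows for 8 of the 10 genes, not RELB or NFKBIE. In each window the 250 bases before the start were searched on both strands for the 10-base kB consensus. Below, matches are in capitals, and each sequence runs 5′ to 3′ along the strand of its gene. The windows are of the genes that fell (BIRC3, TNFAIP3), of NFKBIA, and of BIRC2, the paralog next to BIRC3.
BIRC3, chr11:102317234-102317483, plus strand: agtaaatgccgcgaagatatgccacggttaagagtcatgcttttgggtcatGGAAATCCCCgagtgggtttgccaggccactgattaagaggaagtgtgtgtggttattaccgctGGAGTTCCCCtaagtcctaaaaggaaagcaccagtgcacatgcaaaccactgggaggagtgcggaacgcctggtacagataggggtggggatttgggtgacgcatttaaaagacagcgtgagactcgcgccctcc
TNFAIP3, chr6:137867009-137867258, plus strand: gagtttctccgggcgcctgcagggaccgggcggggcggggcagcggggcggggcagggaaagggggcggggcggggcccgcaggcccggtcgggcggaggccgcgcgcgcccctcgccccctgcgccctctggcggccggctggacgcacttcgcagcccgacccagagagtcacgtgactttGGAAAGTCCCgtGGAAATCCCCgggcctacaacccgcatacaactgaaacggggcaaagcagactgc
NFKBIA, chr14:35404750-35404999, minus strand: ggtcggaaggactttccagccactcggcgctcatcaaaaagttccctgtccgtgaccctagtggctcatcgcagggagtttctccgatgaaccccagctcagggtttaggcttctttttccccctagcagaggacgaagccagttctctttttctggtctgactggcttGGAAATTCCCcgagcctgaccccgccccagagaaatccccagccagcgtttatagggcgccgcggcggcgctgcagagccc
BIRC2, chr11:102346964-102347213, plus strand: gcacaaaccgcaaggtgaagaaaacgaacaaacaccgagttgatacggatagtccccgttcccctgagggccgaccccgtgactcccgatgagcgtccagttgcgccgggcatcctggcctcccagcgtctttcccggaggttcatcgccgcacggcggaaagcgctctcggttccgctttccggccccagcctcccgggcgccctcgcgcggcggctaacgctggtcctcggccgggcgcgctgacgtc

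The kB consensus was present in a window of 6 of the 8 genes, against 6.28% of the 27305 genes with windows in RefSeq. BIRC3 and TNFAIP3 each held 2 matches, and 1 of them was the same 10 bases in both genes, GGAAATCCCC. That decamer, picked out after the values were seen, occurred on either strand in 34 of the 27305 genes (0.125%). NFKBIA held 1 match, as did NFKB1 (tcagtGGGAATTTCCagcca, first capital at -49 from the start) and TNIP1 (ctccgGGGACTTTCCcaggg, first capital at -42). NFKB2 held 3 matches in 1 window, a pair of them overlapping, and 2 in another, one of which was ttttcGGGACTTTCCtaagc (first capital at -21). No match was found in the windows of BIRC2 and RELA, which says only that these letters are not in those bases. A match is a description of letters and not evidence of binding in these cells.

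RBM8A itself was at 15.3, 13.2 and 14.8 FPKM in siNC replicates 1, 2 and 3 and at 3.25, 2.23 and 3.38 FPKM in the siRBM8A replicates, 20.5% of the siNC mean (log2 fold change -1.97, limma adjusted p = 0.00544, by the test described with the 10 genes). The adjusted p was 0.0502 without siNC replicate 3 and 0.0549 without siRBM8A replicate 3. Each library had 14838527 to 16561306 fragments counted in genes. Epithelial markers were high in every library: EPCAM, KRT8, KRT18, KRT19, CLDN4 and ELF3 summed to 1724 to 2200 FPKM in siNC and 1688 to 2346 FPKM in siRBM8A. The 5 immune markers apart from LYZ summed to at most 0.301 FPKM, with PTPRC at 0, and the endothelial list to at most 0.101 FPKM. The fibroblast list summed to 3.48 to 4.67 FPKM in siNC and 3.49 to 4.50 FPKM in siRBM8A, with DCN at 0. Nearly all of this was COL1A1, at means of 3.95 FPKM in siNC and 3.84 FPKM in siRBM8A. COL1A2 (0.0109 and 0.00352 FPKM) and PDGFRB (0.0339 and 0.0199 FPKM) were near 0. LYZ, a lysozyme gene that gastric epithelium also expresses, was the remaining immune marker, and it fell (log2 fold change -0.49, limma adjusted p = 0.0432), a call lost by limma-voom (0.0513) and in other alternatives, with an adjusted p of up to 0.212. In bulk RNA of this kind, less transcript per cell and fewer cells with the transcript cannot be told apart.

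Replicate 2 of each group stood apart from replicates 1 and 3 along the GC content of the transcripts. Across the 12672 tested genes with a GC value, the log2 deviation of replicate 2 from the mean of replicates 1 and 3 correlated with GC content at r = 0.656 in siNC and r = 0.737 in siRBM8A. Over the 10 genes described here r was 0.956 and 0.944. These are descriptions across genes that share the same libraries, not tests. The AT-rich genes BIRC3 (34.8% GC) and BIRC2 (38.0% GC) were lowest in replicate 2 of both groups, and the GC-rich genes NFKB2 (62.4% GC) and RELB (65.4% GC) were highest there.

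**Figure D1:**
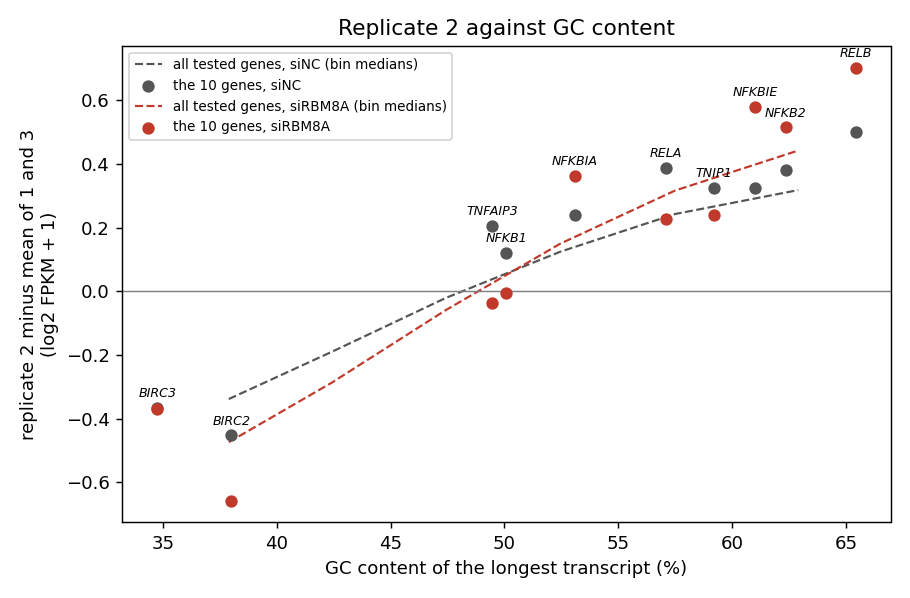
Deviation of replicate 2 from the mean of replicates 1 and 3, in log2(FPKM + 1), against the GC content of the longest transcript in percent. Points are the 10 genes, and dashed lines are medians of all tested genes in GC bins. In both groups BIRC2 and BIRC3 lie below 0 and NFKBIA, RELA, TNIP1, NFKBIE, NFKB2 and RELB above it.

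Of the 10 genes, BIRC3 and TNFAIP3 fell in siRBM8A and the other 8 were not called. Calls were made with limma on log2(FPKM + 1) at a Benjamini-Hochberg adjusted p under 0.05 over 12678 genes. All 10 passed the filter of a mean of at least 1 FPKM. The background share of genes that fell was 3.19% and of genes that rose 2.41%. None of the 10 rose. At an unadjusted p under 0.05, 3 of the 10 were lower and 0 higher. Of the 8606 tested genes with a RefSeq start window, 1329 were lower and 1025 higher at that threshold. Limma-voom on the recovered fragments gave 0 higher and 2 lower of the 10, beside 3.6% lower and 4.4% higher over all genes. The median log2 fold change of the 10 was -0.22, against -0.01 over all tested genes. For 3 of the 10, BIRC3, TNFAIP3 and NFKBIA, the siRBM8A libraries were all lower than the siNC libraries, which was the case for 16.5% of all tested genes, and 14.8% lay wholly higher.

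**Figure D2:**
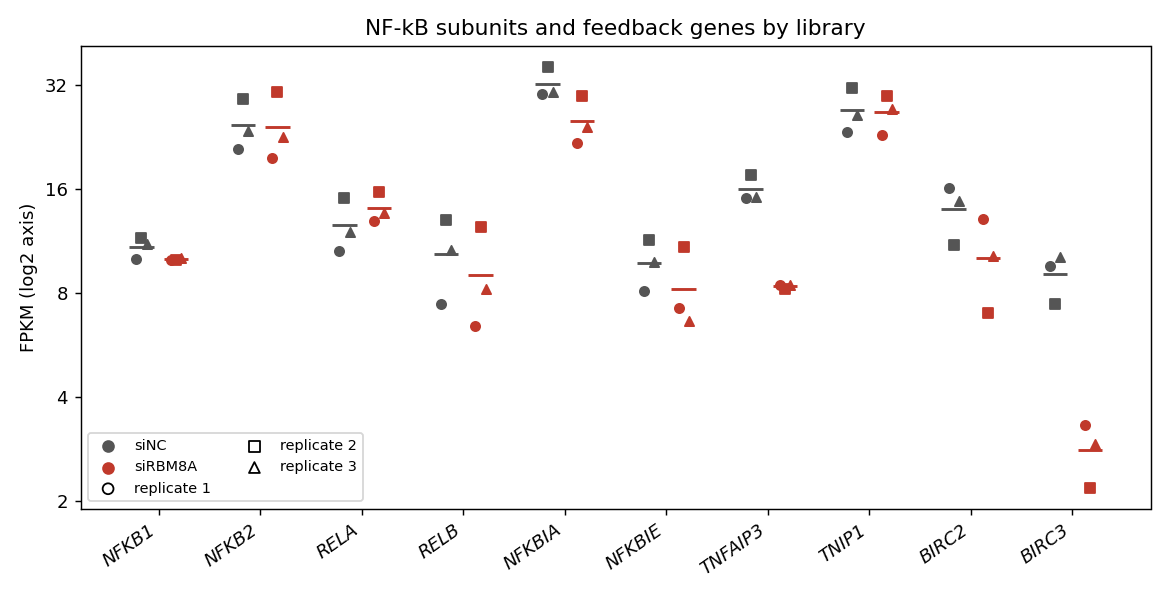
FPKM of the 10 genes on a log2 axis, in 3 siNC libraries (grey) and 3 siRBM8A libraries (red), with the replicate given by the marker shape and the group mean by a bar. BIRC3 is the lowest gene in siRBM8A, at 2.19 to 3.32 FPKM, and the groups of BIRC3, TNFAIP3 and NFKBIA do not overlap.

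The calls depended on which libraries were in the fit. Without siNC replicate 1, siNC replicate 3 or siRBM8A replicate 3, none of the 10 was called, and the fit over all genes then called 13, 7 and 2 genes. Same-numbered libraries deviated together across groups for replicates 1 and 2 (r = 0.507 and 0.663), but hardly for replicate 3 (r = 0.102). These correlations are not independent of each other, since deviations from a group mean cancel out within the group. With the replicate number as a block 4 of the 10 fell (BIRC3, TNFAIP3, NFKBIA and BIRC2), beside a background of 21.3% lower and 18.9% higher. After a GC correction of each library 5 fell, NFKBIE being added, beside 16.2% lower and 15.7% higher. With both together 7 fell, NFKB2 and RELB being added, beside 20.7% lower and 19.9% higher. With both replicate 2 libraries left out 3 fell, NFKBIA being the addition, beside 7.77% lower and 6.41% higher.

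The subunit genes did not pass the test in either direction. NFKB1, whose precursor is processed to the DNA-binding subunit p50, was at 10.0, 11.6 and 11.1 FPKM in siNC and at 9.99, 10.0 and 10.1 FPKM in siRBM8A. The siRBM8A libraries lay at the bottom of the siNC range, and replicate 3 just overlapped it. The log2 fold change was -0.11 (95% interval -0.33 to 0.11, limma adjusted p = 0.500).

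RELA encodes p65, the main activating partner of p50. It was at 10.6, 15.1 and 12 FPKM in siNC and at 12.9, 15.7 and 13.7 FPKM in siRBM8A, with overlapping groups. RELA was the only one of the 10 with a higher mean in siRBM8A, by a log2 fold change of 0.17 (95% interval -0.18 to 0.51, limma adjusted p = 0.516).

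NFKB2 and RELB encode the pair of the non-canonical branch, in which the NFKB2 precursor is processed to p52. NFKB2 was at 20.8, 29.1 and 23.5 FPKM in siNC and at 19.7, 30.5 and 22.6 FPKM in siRBM8A. Its log2 fold change of -0.02 (95% interval -0.47 to 0.43) turned positive, to 0.02, when libraries were scaled to equal FPKM sums. RELB was at 7.45, 13.0 and 10.6 FPKM in siNC and at 6.42, 12.4 and 8.19 FPKM in siRBM8A. Both genes spread more between the replicates of a group than between the group means, with replicate 2 highest each time. The log2 fold change of RELB was -0.20 (95% interval -0.82 to 0.43, limma adjusted p = 0.677). With the GC correction and the replicate block together both were called lower, RELB by -0.36 (adjusted p = 0.00895) and NFKB2 by -0.16 (adjusted p = 0.0156).

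Among the inhibitors, NFKBIA, which encodes IkB-alpha and is itself an NF-kB target, was the most abundant of the 10 genes in siNC. It was at 30.2, 36.1 and 30.5 FPKM in siNC and at 21.8, 29.7 and 24.1 FPKM in siRBM8A. The groups did not overlap, the nearest libraries being siRBM8A replicate 2 and siNC replicate 1. The siRBM8A mean was 78.1% of the siNC mean, with a log2 fold change of -0.35 (95% interval -0.68 to -0.02, limma adjusted p = 0.175). The adjusted p was 0.00729 with the replicate block, 0.00814 after GC correction and 0.0385 without both replicate 2 libraries. Over all alternatives it ran from 0.00279 to 0.378.

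NFKBIE, which encodes IkB-epsilon, was at 8.08, 11.4 and 9.81 FPKM in siNC and at 7.23, 10.8 and 6.63 FPKM in siRBM8A. The groups overlapped, with a log2 fold change of -0.24 (95% interval -0.70 to 0.23, limma adjusted p = 0.486). After GC correction it was -0.36 (adjusted p = 0.0251, with up to 0.805 among the other alternatives).

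TNFAIP3 encodes A20, a ubiquitin-editing enzyme that shuts off signalling to IKK, and it fell to 52.4% of its siNC mean. It was at 15.1, 17.6 and 15.2 FPKM in siNC and at 8.46, 8.21 and 8.41 FPKM in siRBM8A. The groups lay well apart, and the siRBM8A libraries were close to each other. The means were 16 ± 1.43 and 8.36 ± 0.133 FPKM (SD, 3 libraries each), on 3968 and 2045 fragments in all. The log2 fold change was -0.85 (SE 0.0973, limma adjusted p = 0.0109), and it was between -0.92 and -0.77 in all alternatives run. The call was lost when siNC replicate 1 (adjusted p = 0.0602), siNC replicate 3 (0.0917) or siRBM8A replicate 3 (0.0896) was left out. A gene on the opposite strand overlaps 1.88% of the exon bases of TNFAIP3, and reads of the pair could be told apart only if strand was used in counting.

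TNIP1 encodes ABIN1, a ubiquitin-binding partner of A20, and it was not called. It was at 23.5, 31.3 and 26.3 FPKM in siNC and at 22.9, 29.7 and 27.3 FPKM in siRBM8A, with the groups interleaved. Its log2 fold change of -0.02 (95% interval -0.36 to 0.33, limma adjusted p = 0.951) turned to 0.03 with equal FPKM sums. The interval of TNIP1 and that of TNFAIP3 (-1.08 to -0.62) do not overlap. The difference between the genes was not tested.

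BIRC3 and BIRC2 encode cIAP2 and cIAP1, ubiquitin ligases that bind TRAF2, attach ubiquitin to RIPK1 at TNF receptors and hold the non-canonical kinase NIK in check. BIRC3, the strongly NF-kB-induced one, fell to 31% of its siNC mean, the lowest share of the 10. BIRC3 was at 9.61, 7.45 and 10.2 FPKM in siNC and at 3.32, 2.19 and 2.93 FPKM in siRBM8A. The highest siRBM8A library lay below the lowest siNC library, and replicate 2 was lowest in both groups. The fragments behind these values were 1201, 893 and 1279 in siNC and 424, 267 and 335 in siRBM8A. The means were 9.08 ± 1.44 and 2.81 ± 0.575 FPKM (SD, 3 libraries each).

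The log2 fold change of BIRC3 was -1.40 (SE 0.16, limma adjusted p = 0.0109). It was -1.67 by limma-voom on the recovered fragments and -1.16 after GC correction. The call was lost when siNC replicate 1 (adjusted p = 0.0640), siNC replicate 3 (0.0915) or siRBM8A replicate 3 (0.0853) was left out. Without both replicate 2 libraries the log2 fold change was -1.40 (adjusted p = 0.0104).

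BIRC2 was at 16.1, 11.03 and 14.8 FPKM in siNC and at 13.1, 6.99 and 10.2 FPKM in siRBM8A. The groups overlapped, and siRBM8A was lower within each replicate number. The log2 fold change was -0.45 (95% interval -1.0 to 0.10, limma adjusted p = 0.266). The adjusted p was 0.00876 with the replicate block. After GC correction the log2 fold change of BIRC2 was -0.25 (adjusted p = 0.0475). Its adjusted p reached 0.551 among the alternatives.

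**Figure D3:**
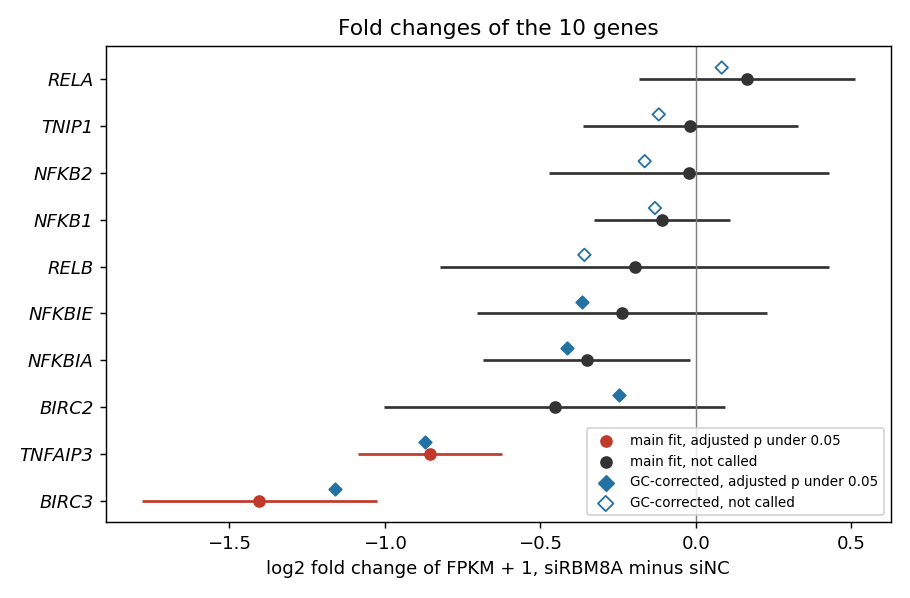
Log2 fold change of FPKM + 1 in siRBM8A against siNC for the 10 genes, with 95% intervals of the limma fit (circles and lines) and the GC-corrected value (diamonds, filled where the adjusted p was under 0.05). The intervals of BIRC3 and TNFAIP3 lie well below 0, that of NFKBIA ends at -0.02, and the other 7 cross 0.

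As a share, BIRC3 made up 37.3%, 40.3% and 40.7% of the BIRC2 and BIRC3 FPKM in siNC and 20.2%, 23.8% and 22.3% in siRBM8A. The groups did not overlap. Replicate 2 lay between the other libraries in siNC and was the highest in siRBM8A. The means were 39.5% ± 1.86 and 22.1% ± 1.84 (SD, n = 3 each), a difference of -17.4 percentage points (exact two-sided permutation p = 0.1, the smallest that 3 against 3 allow). The genes are tandem paralogs. Of the 7591 stretches of 31 bases in BIRC3 transcripts, 37 (0.487%) also occur, letter for letter, in BIRC2 transcripts. Exact matches of this length do not measure how similar the sequences are.

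The balance of inhibitor and subunit transcripts was described by the ratio of NFKBIA to RELA. In FPKM this ratio was 2.86, 2.40 and 2.54 in siNC and 1.69, 1.89 and 1.76 in siRBM8A. No siRBM8A ratio reached a siNC ratio. The means were 2.60 ± 0.237 and 1.78 ± 0.105 (SD, n = 3 each; exact two-sided permutation p = 0.1, again the smallest possible). Other inhibitors are not in this ratio: NFKBIB, which encodes another cytoplasmic inhibitor, rose from a mean of 20.4 to 32.6 FPKM. The balance of all inhibitor and subunit transcripts was not tested.

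**Figure D4:**
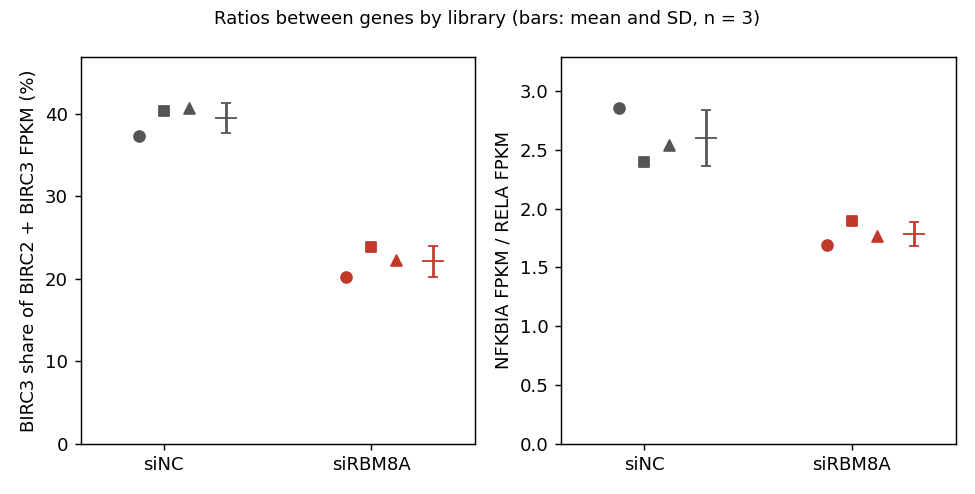
Left, the share of BIRC3 in the summed BIRC2 and BIRC3 FPKM, in percent; right, the FPKM ratio of NFKBIA to RELA. Each marker is a library (circle, square and triangle for replicates 1, 2 and 3), with the mean and SD beside it. The siRBM8A shares end at 23.8% and the siNC shares begin at 37.3%.

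In siNC the per-length levels ran from NFKBIA (32.3 FPKM) through TNIP1 (27.0), NFKB2 (24.5), TNFAIP3 (16), BIRC2 (14), RELA (12.5), NFKB1 (10.9), RELB (10.4) and NFKBIE (9.76) to BIRC3 (9.08 FPKM). Neighbours in that order overlapped in range, except NFKB2 and TNFAIP3. In siRBM8A, TNIP1 (26.6 FPKM) came before NFKBIA (25.2 FPKM), with overlapping ranges. TNFAIP3 moved from rank 4 to rank 8, between RELB (9.02 FPKM) and NFKBIE (8.23 FPKM), and overlapped both. BIRC3 stayed last, and its range no longer reached that of NFKBIE.

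BIRC3 lies on chromosome 11, from 102317450 to 102339403 on the plus strand of GRCh38, and BIRC2 begins 29.8 kb further on. Within 500 kb of the start of BIRC3 lie the starts of 13 other protein-coding genes, of which 4 passed the filter, and none of those 4 was called. They were BIRC2, the transcriptional coactivator gene YAP1, the collagenase gene MMP1, and TMEM123, a surface protein gene. YAP1 was at 31.6 ± 2.44 FPKM with siNC and at 29.5 ± 2.84 FPKM with siRBM8A, and MMP1 at 11.9 ± 1.86 and 12.5 ± 2.59 FPKM. TMEM123 was at 133 ± 19.8 and 111 ± 34.2 FPKM, with overlapping groups. The log2 fold changes of these 3 were between -0.30 and 0.06, against -1.40 for BIRC3. Among the 9 neighbours below the filter, 3 metalloproteinase genes had groups that did not overlap. Over all tested genes, which lie above the filter, 16.5% were wholly lower in siRBM8A and 14.8% wholly higher. MMP20 was at 1.27 ± 0.175 and 0.557 ± 0.0941 FPKM, while MMP7 (0.487 ± 0.164 and 0.789 ± 0.113 FPKM) and MMP10 (0.103 ± 0.0582 and 0.455 ± 0.149 FPKM) were higher in siRBM8A. These rested on 160 and 69 fragments for MMP20, 56 and 89 for MMP7, and 9 and 39 for MMP10. In the fit without the filter their adjusted p were 0.139, 0.408 and 0.143.

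Of 77 other NF-kB pathway genes that passed the filter, 9 fell and 1 rose, a share that stands beside 3.19% lower and 2.41% higher over all genes. The lists held 106 genes, 28 were below the filter, and 1 symbol with 2 rows was left out. Their median log2 fold change was -0.13, against -0.01 over all tested genes. Without siNC replicate 1, siNC replicate 3 or siRBM8A replicate 3 all 10 calls were lost, and 9 were lost without siNC replicate 2. Without the filter on low values 3 of the 10 were still called, TNFRSF1B, RIPK1 and NFKBIZ. With the replicate block 28 of the 77 fell and 11 rose, beside 21.3% lower and 18.9% higher over all genes in that fit. Block calls given below for single genes stand beside these same shares, and GC-corrected calls beside 16.2% lower and 15.7% higher.

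**Figure D5:**
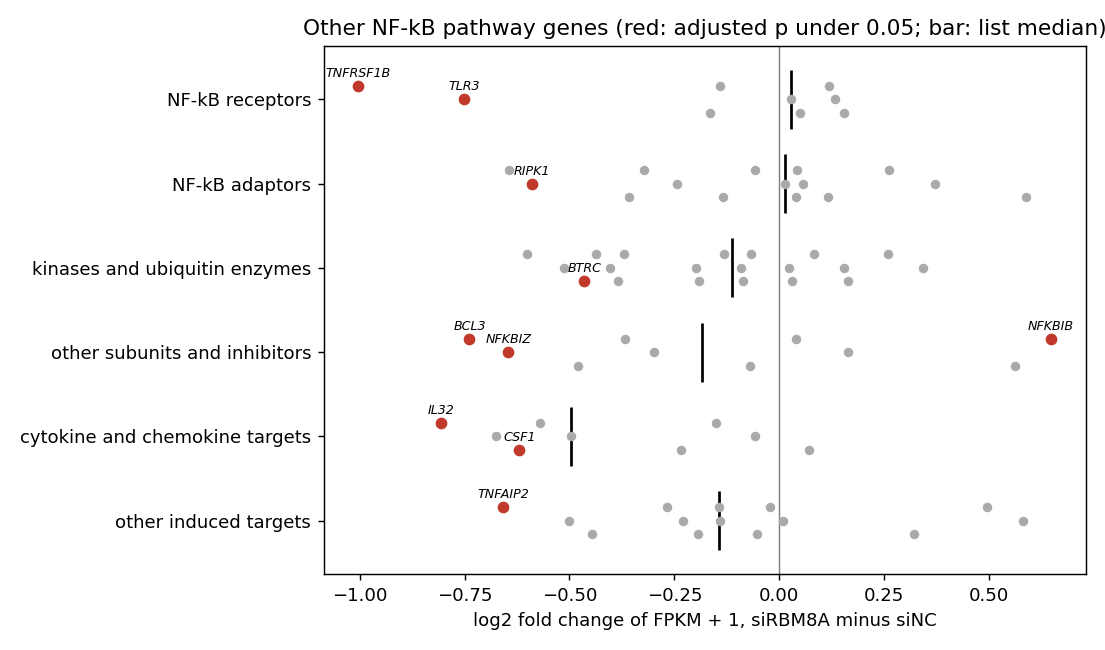
Log2 fold change of FPKM + 1 in siRBM8A against siNC for 77 other pathway genes in 6 lists. Each point is a gene, red and named where the adjusted p was under 0.05, and the bar is the median of the list. The list medians lie between -0.50 for cytokines and chemokines and 0.03 for receptors, and NFKBIB is the red point above 0.

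Among the receptors, 2 of 9 tested fell, beside 3.19% of all tested genes. TNFRSF1B, which encodes the TNF receptor TNFR2, was at 20.9, 25.3 and 22.5 FPKM in siNC and at 9.85, 11.9 and 10.97 FPKM in siRBM8A, with no overlap (log2 fold change -1.0, SE 0.115, limma adjusted p = 0.0109). TLR3, a sensor of double-stranded RNA, fell from 2.68 ± 0.336 to 1.19 ± 0.314 FPKM (limma adjusted p = 0.0398). Leaving out any 1 library ended the call of TLR3 (adjusted p = 0.0509 to 0.186), as did the fit without the filter (0.113). CD40, LTBR and the most abundant receptor gene, TNFRSF12A, were not called, with log2 fold changes from -0.14 to 0.16. LTBR was called higher with the replicate block (adjusted p = 0.0402), and TNFRSF12A lower after GC correction (log2 fold change -0.30, adjusted p = 0.0109).

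Of 15 adaptor genes 1 fell, beside 3.19% of all tested genes. RIPK1, the kinase scaffold that cIAP proteins ubiquitinate, was at 19.99, 19.4 and 21.1 FPKM in siNC and at 13.5, 12.8 and 13.0 FPKM in siRBM8A (log2 fold change -0.59, SE 0.0866, limma adjusted p = 0.0194). These groups were far apart compared with their spread. TRAF2 and TRAF3, which join the cIAP proteins to NIK, had no overlap either, in the other direction: TRAF2 was at 13.8 ± 1.45 and 21.5 ± 5.19 FPKM (adjusted p = 0.0924) and TRAF3 at 9.02 ± 0.951 and 12 ± 1.58 FPKM (adjusted p = 0.125). Both were called higher with the replicate block, at adjusted p of 0.00525 and 0.00528, in a fit that called 18.9% of all tested genes higher. IRAK1, the most abundant adaptor gene, was at 56.3 ± 7.73 and 61.4 ± 11.6 FPKM.

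Of 20 kinases and ubiquitin enzymes 1 fell, beside 3.19% of all tested genes. BTRC, a substrate receptor of the ligase that marks IkB proteins for degradation, was at 6.30 ± 0.587 FPKM with siNC and at 4.29 ± 0.276 FPKM with siRBM8A (log2 fold change -0.46, limma adjusted p = 0.0492). The call of BTRC lay close to the threshold: its adjusted p was 0.0639 with equal FPKM sums, 0.0544 by limma-voom and 0.108 without the filter, and leaving out any 1 library ended the call. Its paralog FBXW11 was at 10.7 ± 0.756 and 7.26 ± 1.35 FPKM without a call (adjusted p = 0.0758). CYLD, a deubiquitinase that opposes NF-kB signalling, was at 2.03 ± 0.263 and 1.00 ± 0.231 FPKM (adjusted p = 0.0574). With the replicate block FBXW11 and CYLD were called as well, at adjusted p of 0.00818 and 0.00954. That fit called 21.3% of all tested genes lower. RBCK1, a subunit of the linear ubiquitin ligase and the most abundant gene of the list, was at 79.9 ± 9.75 and 85.5 ± 17.97 FPKM.

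Among the remaining subunit and inhibitor genes, 2 of 10 fell and 1 rose, beside 3.19% lower and 2.41% higher over all tested genes. NFKBIZ and BCL3, which encode 2 of the atypical nuclear IkB proteins that bind NF-kB on DNA, fell. NFKBIZ was at 7.80, 7.52 and 7.94 FPKM in siNC and at 4.73, 4.41 and 4.65 FPKM in siRBM8A (log2 fold change -0.65, limma adjusted p = 0.0152), and BCL3 went from 25.5 ± 3.53 to 14.8 ± 1.11 FPKM (adjusted p = 0.0276). NFKBIB, which encodes the cytoplasmic inhibitor IkB-beta, rose. NFKBIB was at 19.7, 23.0 and 18.4 FPKM in siNC and at 27.9, 37.4 and 32.5 FPKM in siRBM8A (log2 fold change 0.65, SE 0.140, limma adjusted p = 0.0475). NFKBID was also higher in siRBM8A, with no overlap, at 5.05 ± 0.655 and 8.07 ± 2.27 FPKM, but was not called (limma adjusted p = 0.118). With the replicate block NFKBID was called higher (adjusted p = 0.00759). RNF11, a partner of A20, was at 19.9 ± 1.12 and 14.3 ± 3.43 FPKM (adjusted p = 0.125, and 0.0249 with the replicate block).

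Of 21 cytokine and chemokine targets only 9 passed the filter, and 2 of these fell, beside 3.19% of all tested genes. IL32, a cytokine gene and the most abundant of them, was at 84.0, 115 and 101 FPKM in siNC and at 50.9, 61.8 and 56.6 FPKM in siRBM8A (log2 fold change -0.81, limma adjusted p = 0.0304). CSF1, the macrophage growth factor gene, fell from 13.7 ± 1.65 to 8.61 ± 1.21 FPKM (adjusted p = 0.0464). CXCL2 was at 3.70 ± 0.321 and 2.18 ± 0.417 FPKM (adjusted p = 0.0536, and 0.0199 with the replicate block). CXCL10 was at 6.24 ± 1.72 and 4.04 ± 0.323 FPKM (adjusted p = 0.141, and 0.0208 with the replicate block).

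Of 14 other induced targets tested 1 fell, beside 3.19% of all tested genes. TNFAIP2, a TNF-induced gene, was at 41.5, 53.0 and 44.2 FPKM in siNC and at 27.8, 32.7 and 26.3 FPKM in siRBM8A (log2 fold change -0.66, limma adjusted p = 0.0408). PTGS2, which encodes the prostaglandin enzyme COX-2, had the other direction, at 1.88 ± 0.131 and 3.33 ± 0.588 FPKM (adjusted p = 0.0536, and 0.00768 with the replicate block). IRF1, a transcription factor gene shared with the interferon response, was at 6.36 ± 0.847 and 4.19 ± 0.413 FPKM (adjusted p = 0.0599, and 0.00485 with the replicate block). SDC4, the most abundant of the list, was at 162 ± 8.98 and 163 ± 3.09 FPKM.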

How the data were processed

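The deposited table held FPKM values made by the authors, 1 column per library, per the file headers. HISAT2, StringTie and the GRCh38 build appear, with no role or order, per the submitters' processing notes. Their settings, strand use included, were not given in the sources used here. All identifiers matched GENCODE 29, which supplied coordinates and exon lengths. FPKM times exon length gave whole fragments for 100% of values above 0 (tolerance 0.001 fragments). In every library the median ratio to the gene-wise geometric mean was 1.01, so the FPKM already carry equal median ratios.

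The main test was limma 3.58.1 (R 4.3.3) on log2(FPKM + 1) with a variance trend, two-sided, for genes whose mean over the 6 libraries reached 1 FPKM. It understates the change of low genes. Ratios were tested by exact permutation (scipy 1.17.1). The GC correction subtracted a loess curve per library (span 0.3), which also removes real change that follows GC content. Samples were grouped by title. The labels call the replicates biological without naming separate cultures, so p-values measure the spread between these samples, which may be technical.

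Deviations from the group mean correlated between same-numbered libraries at 0.507, 0.663 and 0.102, so the replicate numbers were treated as pairing them. Within a group the deviations cancel out, so a shift of replicate 2 also moves those of replicates 1 and 3. This pairing comes from the data, not the labels, and is weak for replicate 3: siNC replicate 3 correlated at 0.258 with siRBM8A replicate 1, and siNC replicate 1 at 0.187 with siRBM8A replicate 3.

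The 10 genes, the lists and the alternatives were chosen with earlier results of these data known. Pathway genes named are the called ones, the 2 uncalled with the smallest p and the most abundant of each list.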

Additional observations from a re-analysis of the deposited data

How the results depend on the processing

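BIRC3 and TNFAIP3 kept their direction in every alternative run, and they lost their call only without siNC replicate 1, siNC replicate 3 or siRBM8A replicate 3. The count of all called genes, 709, was 268 without the filter on low values, 5096 with the replicate block, 4049 after GC correction, 5155 with both and 1803 without both replicate 2 libraries. The 2 calls among the 10 genes became 4, 5 and 7 with the block, the GC correction and both. The 10 calls among other pathway genes became 3 without the filter, 39 with the block, 34 after GC correction, 38 with both and 20 without both replicate 2 libraries. Leaving out 1 library gave 2 to 622 calls over all genes, 0 to 2 among the 10 genes and 0 to 9 among pathway genes, depending on the library: the fewest calls over all genes were without siRBM8A replicate 3 and the most without siRBM8A replicate 2. Of the 709 calls 404 were lower, against 325 of 793 with equal FPKM sums and 457 of 1015 by limma-voom. Values near 0 changed sign. The log2 fold change of NFKB2 was 0.022 with equal FPKM sums, 0.0089 by limma-voom and -0.19 to 0.11 without 1 library. That of TNIP1 was 0.026, 0.013 and -0.11 to 0.090, and 0.010 without both replicate 2 libraries. After GC correction, with and without the block, it was -0.032 for IRAK1, -0.075 for RBCK1 and 0.0095 for YAP1. Without 1 library it was -0.31 to 0.010 for TNFRSF12A, -0.030 to 0.22 for IRAK1, -0.077 to 0.21 for RBCK1, -0.033 to 0.05 for SDC4 and -0.085 to 0.18 for MMP1. For SDC4 it was 0.061 without both replicate 2 libraries. The cause was not tested. The difference in BIRC3 share was -18.4 to -16.4 percentage points and that in the NFKBIA to RELA ratio -0.92 to -0.69 without 1 library. With the replicate block the share differed by -17.4 points (exact p = 0.25, the smallest that 3 pairs allow). The lowest fragment count of the 10 genes in a library was 260, for NFKBIE. Scaling by median ratios gave 709 calls again, since the FPKM already had equal median ratios.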

Other observations

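The kB consensus was also looked up in other tested genes. Of 692 tested genes with the consensus in a RefSeq start window, the 10 genes left out, 25 fell (3.61%) and 11 rose (1.59%), with a median log2 fold change of -0.05. Among the 8606 tested genes with any window, 3.57% fell and 2.25% rose, with a median of -0.02. Of the 13 other tested genes with the decamer shared by BIRC3 and TNFAIP3, GGAAATCCCC, 0 fell and 0 rose by limma at the adjusted threshold. At an unadjusted p under 0.05, 5 of the 13 were lower and 2 higher, beside 1329 lower and 1025 higher of the 8606. By limma-voom 2 of the 13 fell and 0 rose at the adjusted threshold, beside 353 and 400 of the 8606. The median log2 fold change of the 13 was 0.09.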
